A study of Mus musculus with 24 samples.

Results

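The 42 genes described here carry out or prepare DNA replication in S phase, and they were chosen by gene symbol from a count table of 53467 mouse genes. All 42 were among the 19381 genes that passed the filter on low counts. The RNA came from snap-frozen bulk liver of 24 male C57BL/6JAusb mice, 1 liver per mouse, and the share of tumour in each piece of tissue is not given in the sources used here. Every mouse received 0.8 µg of a Sleeping Beauty (SB) transposase plasmid by hydrodynamic tail vein injection at 14 to 15 weeks of age, so the controls carry that plasmid too. The SB/AKT/c-Met groups received in addition 10 µg of an AKT plasmid and 10 µg of a c-Met plasmid, and the SB/AKT/NRas groups 10 µg of the AKT plasmid and 10 µg of an NRas plasmid. AKT is a membrane-targeted (myristoylated) form, and the NRas plasmid encodes a constitutively active mutant under the CAGGS promoter, while c-Met is driven by the EF1a promoter and the transposase by the CMV promoter, none of which is specific to a cell type. Hydrodynamic injection transfects only some of the liver's cells, so each library mixes transfected and untransfected tissue. From 8 to 10 days later the mice were given 10 to 11 intraperitoneal injections over 5 to 6 weeks, either of saline or of thioacetamide (TAA), a hepatotoxin that injures hepatocytes around the central vein, at 100 mg/kg first and 200 mg/kg thereafter. The 24 livers fell into 4 controls (SB + saline), 4 given TAA alone (SB + TAA), 3 of SB/AKT/c-Met + saline and, with TAA, 4 of that oncogene pair. There were 4 SB/AKT/NRas livers given saline and 5 given TAA. Below, the oncogene groups are named without the SB that all groups share.

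Replication starts at origins that are licensed in G1, when the origin recognition complex, Cdc6 and Cdt1 load the Mcm2 to Mcm7 helicase onto DNA. In S phase Cdc45 and the GINS complex join the helicase, primase and the polymerases copy both strands around the Pcna clamp, and ligase joins the Okazaki fragments of the lagging strand. Most of these genes are transcribed by E2F factors once the retinoblastoma protein is inactivated, and adult hepatocytes, which are largely quiescent, re-enter the cycle when the liver is injured or loses mass.

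Libraries held 2152510 to 3399247 counts (median 2832909), so many of the 42 genes rest on few counts. Levels are given as CPM, counts scaled to a common TMM-normalised library size, and changes as log2 fold changes ± SE from edgeR's quasi-likelihood test with all 24 livers in 1 model, adjusted by the Benjamini-Hochberg method over the 19381 genes. A gene is said to have risen or fallen where the adjusted p was under 0.05. The normalisation factors were 0.772 to 0.818 in SB + saline livers and 0.943 to 1.15 in SB + TAA livers, and the percentage of records assigned to genes was 15.6 to 16.7 against 20.7 to 23.1 in those groups. Human NRAS was at 12.3 to 218 CPM in AKT/NRas livers and at 1.14 CPM or less in the livers without that plasmid, and human MET had counts in the 7 AKT/c-Met livers and in none of the others. All 8 hepatocyte markers checked were detected in every group. Their sum was 100800 to 118700 CPM in SB + saline livers and 80850 to 113900 CPM in SB + TAA livers, and every oncogene group lay wholly below SB + saline, at 66440 to 78380 CPM in AKT/c-Met + saline, 57920 to 85270 CPM in AKT/c-Met + TAA, 52590 to 90730 CPM in AKT/NRas + saline and 51660 to 78820 CPM in AKT/NRas + TAA. Of the 8, 3 fell in AKT/NRas + saline (2.84% of all genes), 4 in AKT/NRas + TAA (3.55%) and 1 in AKT/c-Met + TAA (1.07%). In bulk tissue, fewer cells of a type and less RNA per cell cannot be told apart.

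The replication genes were lowest in uninjured control livers and highest in livers given TAA without oncogenes. By group mean, 32 of the 42 were highest in SB + TAA livers, where 19.8% of all genes had their highest mean, and 31 were lowest in SB + saline livers, where 30.5% of all genes were lowest. Against SB + saline, 24 of the 42 rose in SB + TAA livers and 0 fell, beside a background of 3.48% of all genes that rose and 2.51% that fell. In AKT/NRas + saline livers 9 rose (5.56% of all genes) and 0 fell (2.84%). In AKT/NRas + TAA livers 13 rose (5.7% of all genes) and 2, Mcm10 and Tk1, fell (3.55%). In AKT/c-Met + TAA livers 6 rose (2.68%) and 0 fell (1.07%). In AKT/c-Met + saline livers none was called by edgeR, limma-voom or DESeq2, against 0.599% of all genes that rose and 0.0413% that fell, and 13 of the 42 had an unadjusted p under 0.05. The share of all genes at an unadjusted p under 0.05 is not given, so such counts, here and below, have no background to be read against. For each count of 0 fallen members above, DESeq2 also called 0. The counts with limma-voom, the test used in the study, were 16 for SB + TAA (5.12% of all genes called) and 9 for AKT/NRas + saline (7.51%), 7 higher and 2 lower. They were 2 for AKT/c-Met + TAA (3.49%) and 11 for AKT/NRas + TAA (9%). Groups without overlap between livers, all of a group above all SB + saline livers, were found for 16 members in SB + TAA (6.52% of all genes), 7 in AKT/c-Met + saline (5.28%), 9 in AKT/NRas + saline (5.07%), 16 in AKT/c-Met + TAA (7.22%) and 14 in AKT/NRas + TAA (7.89%). Groups wholly below the SB + saline livers were found for 1 member (Tk1) in SB + TAA (5.2%), AKT/c-Met + saline (4.85%), AKT/c-Met + TAA (5.6%) and AKT/NRas + TAA (6.12%), and for 0 in AKT/NRas + saline (4.27%). These 5 comparisons use the same 4 SB + saline livers, so their calls are not independent of one another.

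**Figure D1:**
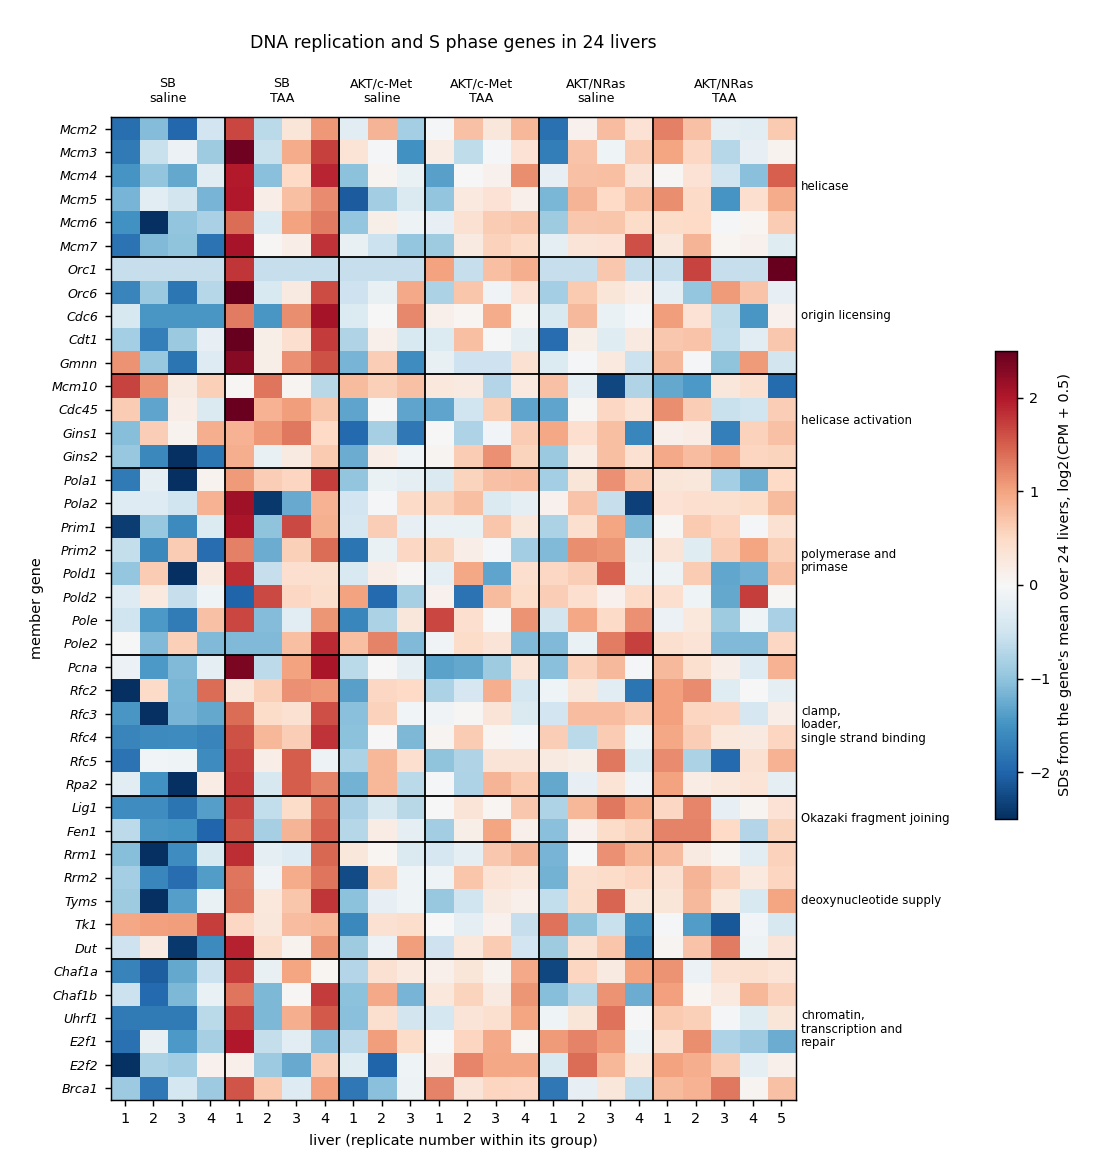
Heat map of the 42 members (rows, in role groups separated by lines) in each of the 24 livers (columns, by group and replicate; SB is also part of the AKT/c-Met and AKT/NRas groups). Colour gives the distance from the gene's mean over all livers in SDs of log2(CPM + 0.5); SB + TAA replicates 1 and 4 are red in most rows and SB + saline livers mostly blue, and the Mcm10 and Tk1 rows are red in SB + saline.

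The median log2 fold change of the 42 genes was 1.39 in SB + TAA livers (0.09 over all genes tested), 0.46 in AKT/c-Met + saline (0.02), 0.98 in AKT/NRas + saline (0.07), 0.87 in AKT/c-Met + TAA (0.04) and 0.89 in AKT/NRas + TAA (0.07). With Orc1, which had no count in 2 groups, set to its bound of 3 counts per group, these medians were 1.31, 0.46, 0.95, 0.85 and 0.87. Summed over the 42 genes, the level in single livers was 315, 267, 217 and 292 CPM in SB + saline and 661, 372, 438 and 563 CPM in SB + TAA. It was 267, 369 and 325 CPM in AKT/c-Met + saline, 303, 353, 361 and 391 CPM in AKT/c-Met + TAA, 289, 380, 406 and 345 CPM in AKT/NRas + saline, and 406, 386, 338, 347 and 364 CPM in AKT/NRas + TAA. SB + TAA was thus the group with the widest spread, with replicates 1, 3 and 4 above every liver of the other groups and replicate 2 within the range of the oncogene groups. Mcm10, whose highest group mean was in SB + saline, made up 42.5 to 118 CPM of the sum in those livers. Without Mcm10 the sums were 174 to 236 CPM in SB + saline, 279.5 to 624 CPM in SB + TAA and 203 to 314 CPM in AKT/c-Met + saline. They were 259 to 348 CPM in AKT/c-Met + TAA, 229 to 399 CPM in AKT/NRas + saline and 293.5 to 391 CPM in AKT/NRas + TAA. SB + TAA replicate 2, then at 279.5 CPM, lay below every AKT/NRas + TAA liver. The count of 24 rested in part on single livers, since it was 10 without SB + TAA replicate 1, 14 without SB + TAA replicate 4 and 15 without SB + saline replicate 3. Calls over all genes fell as well, from 5.99% to 3.62%, 2.23% and 3.49% in the same order, so the loss was not confined to the members. In AKT/NRas + saline the lowest liver, replicate 1, also had the lowest human NRAS level of the group (12.3 CPM, against 55.3, 218 and 66.1 CPM), and the count of 9 became 18 without that liver and 5 without replicate 3. That liver also had the lowest percentage of records assigned in its group (13.75, against 18.87, 23.94 and 17.74) and the lowest normalisation factor (0.846, against 1.16, 1.19 and 1.16). In AKT/NRas + TAA replicates 3 and 4 had the lowest sums and the lowest human NRAS (18.5 and 17.9 CPM). The highest sum there was in replicate 1 (34.0 CPM of NRAS), and the highest NRAS in replicate 5 (75.7 CPM, sum 364 CPM). How the sums relate to human NRAS or to these library measures was not tested. The 6 in AKT/c-Met + TAA became 3 without SB + saline replicate 3 or without its own replicate 2, and the 15 called in AKT/NRas + TAA became 8 without SB + saline replicate 1 or 2.

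Markers of several other cell types moved with the groups as well. Of all genes, 3.48% rose in SB + TAA and 5.56% in AKT/NRas + saline. Of 10 markers of monocyte-derived macrophages, 7 rose in SB + TAA livers, where their summed level was 178 to 305 CPM against 59.5 to 79.4 CPM in SB + saline, and in that baseline Itgax had no count. In AKT/NRas + saline livers 7 of the 10 rose as well and the sum reached 8776 CPM. By group mean it was 3127 CPM, of which Spp1, also a bile duct marker, made up 3011 CPM, so this sum is mostly Spp1 and does not measure macrophages. The 7 bile duct markers tested, Spp1 among them, summed to 150 to 8806 CPM there, against 56.1 to 97.0 CPM in SB + saline. By group mean Sox9 was at 78.5 against 28.8 CPM and Epcam at 11.6 against 1.74 CPM in these groups. Of 8 stellate cell markers 3 rose in SB + TAA livers, one of them Des, which skeletal muscle also expresses, with sums of 333 to 653 CPM against 201 to 328 CPM. Within SB + TAA, replicate 4 alone had high levels of skeletal muscle genes: the 7 muscle markers tested, of 8 listed, summed to 4697 CPM there and to 6.71 to 7.95 CPM in the other 3 livers of the group. The T and NK cell list, of which 1 of 11 rose (Nkg7, adjusted p = 0.0307), summed to 8.29 to 21.4 CPM in SB + TAA livers against 3.42 to 6.82 CPM in SB + saline, without overlap. For B and plasma cells the sums were 6.05 to 12.6 against 2.81 to 6.82 CPM, with 0 of 6 called by edgeR and 1 at an unadjusted p under 0.05. Neutrophil sums were 5.81 to 16.1 CPM in SB + TAA and 2.57 to 12.4 CPM in SB + saline, and 14.5 to 93.4 CPM in AKT/NRas + saline, where 2 of 6 neutrophil markers rose. The part of these cells, and of the lower hepatocyte markers, in the replication gene levels was not tested.

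Promoter sequence from RefSeq (GRCm38.p6, 250 bases before to 50 bases after the annotated start) was matched by symbol for 35 of the 42 genes, and Mcm4, Gins1, Gins2, Gmnn, Prim2, Pole and Rfc2 had no entry. On both strands, these windows were searched for 4 exact forms of the E2F motif, TTTCCCGC, TTTGGCGC, TTTCGCGC and TTTGCCGC, whose matches on opposite strands can overlap. At least 1 match was present in 14 of the 35 genes (40.0%), against 704 of 27025 genes with a promoter entry (2.6%) and 2.26% of all 32851 windows. The motif CCAAT, searched in the same way, was in 21 of the 35 (60.0%) and in 41.1% of all genes. Of the members that rose in SB + TAA livers, 22 had a promoter entry and 10 of them an E2F match, and among the other 13 members with an entry 4 had one. CCAAT was in 16 of the 22 and in 5 of the other 13. Neither split was tested. The 5 windows below show the member with the most matches and the largest rise among well counted members (Mcm6), another helicase subunit with an overlapping pair (Mcm5), the leading gene of the lagging strand group (Lig1, the one of its 3 windows with a match) and the 2 members that fell (Mcm10 and Tk1), which had none. Capitals mark the E2F matches, and a match is only a stretch of these letters. The Mcm10 window ends in all but the last base of TTTGGCGC, and a match cut by the window's edge was not counted. No window is shown of a member that rose without a match.
Mcm6 (chr1:128359656-128359955, minus strand): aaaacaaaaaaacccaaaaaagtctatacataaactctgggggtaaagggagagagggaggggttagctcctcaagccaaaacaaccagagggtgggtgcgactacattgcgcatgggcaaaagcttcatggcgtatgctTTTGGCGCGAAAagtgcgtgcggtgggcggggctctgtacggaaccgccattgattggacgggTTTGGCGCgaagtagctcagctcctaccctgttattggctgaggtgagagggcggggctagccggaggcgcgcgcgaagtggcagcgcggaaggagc
Mcm5 (chr8:75109259-75109558, plus strand): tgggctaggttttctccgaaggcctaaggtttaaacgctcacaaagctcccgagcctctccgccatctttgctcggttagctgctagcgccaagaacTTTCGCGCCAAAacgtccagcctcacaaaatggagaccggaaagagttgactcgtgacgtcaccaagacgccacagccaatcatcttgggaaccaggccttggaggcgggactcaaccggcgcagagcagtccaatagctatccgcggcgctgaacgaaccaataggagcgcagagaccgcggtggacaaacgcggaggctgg
Lig1 (chr7:13278576-13278875, plus strand): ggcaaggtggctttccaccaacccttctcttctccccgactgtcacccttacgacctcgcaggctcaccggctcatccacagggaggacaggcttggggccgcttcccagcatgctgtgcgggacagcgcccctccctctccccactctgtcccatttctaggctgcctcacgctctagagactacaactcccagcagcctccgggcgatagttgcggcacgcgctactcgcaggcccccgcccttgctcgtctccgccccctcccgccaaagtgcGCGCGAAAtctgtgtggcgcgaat
Mcm10 (chr2:5012742-5013041, minus strand): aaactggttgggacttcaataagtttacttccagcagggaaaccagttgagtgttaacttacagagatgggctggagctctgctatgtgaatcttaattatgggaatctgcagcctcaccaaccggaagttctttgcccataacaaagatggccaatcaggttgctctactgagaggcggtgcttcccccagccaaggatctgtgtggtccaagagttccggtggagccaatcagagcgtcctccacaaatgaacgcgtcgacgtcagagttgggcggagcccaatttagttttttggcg
Tk1 (chr11:117825965-117826264, minus strand): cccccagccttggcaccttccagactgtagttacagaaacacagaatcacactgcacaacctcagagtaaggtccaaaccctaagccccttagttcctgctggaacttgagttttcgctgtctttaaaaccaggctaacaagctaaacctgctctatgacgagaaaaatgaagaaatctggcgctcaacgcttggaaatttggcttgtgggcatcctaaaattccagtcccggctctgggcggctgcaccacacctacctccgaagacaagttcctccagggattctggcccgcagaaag
In Mcm6 the matches began 110, 106 and 47 bases before the start, the first 2 overlapping on opposite strands, and in Lig1 the match began at base 27 after it. In Mcm5 the pair began 153 and 149 bases before the start.

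The 6 subunits of the replicative helicase all rose in SB + TAA livers. Mcm6, the subunit with the smallest p in the test among all groups, was at 1.71, 0, 3.21 and 3.85 CPM in SB + saline livers and 35.3, 6.32, 23.9 and 31.6 CPM in SB + TAA livers. It was at 3.24, 10.3 and 7.87 CPM in AKT/c-Met + saline and 7.30, 13.0, 16.6 and 17.6 CPM in AKT/c-Met + TAA. In AKT/NRas + saline it was at 3.52, 17.4, 17.6 and 14.0 CPM and in AKT/NRas + TAA at 14.0, 14.5, 8.47, 9.28 and 16.8 CPM. Every SB + TAA liver and every oncogene liver given TAA lay above all 4 SB + saline livers, whereas replicate 1 of each oncogene group given saline lay within their range. The log2 fold change from SB + saline was 3.38 ± 0.54, adjusted p = 0.00044 in SB + TAA, 2.51 ± 0.57, adjusted p = 0.00658 in AKT/NRas + saline, 2.54 ± 0.57, adjusted p = 0.00841 in AKT/c-Met + TAA and 2.43 ± 0.55, adjusted p = 0.00496 in AKT/NRas + TAA. In AKT/c-Met + saline it was 1.64 ± 0.64, adjusted p = 0.361. With limma-voom the adjusted p was 0.0621 for AKT/NRas + saline and 0.0740 for AKT/c-Met + TAA.

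The other subunits rose in SB + TAA livers by 2.30 ± 0.56 for Mcm2 (adjusted p = 0.0146), 2.11 ± 0.55 for Mcm5 (adjusted p = 0.0215), 1.66 ± 0.42 for Mcm3 (adjusted p = 0.017), 1.64 ± 0.47 for Mcm4 (adjusted p = 0.0343) and 1.40 ± 0.27 for Mcm7 (adjusted p = 0.00224) on the log2 scale. Mcm7 also rose in AKT/NRas + saline (1.11 ± 0.27, adjusted p = 0.0108) and in AKT/NRas + TAA (0.89 ± 0.26, adjusted p = 0.0292), and Mcm2 in AKT/NRas + TAA (1.98 ± 0.55, adjusted p = 0.0219). For Mcm3, Mcm4 and Mcm5 no change in an oncogene group passed the test, with log2 fold changes from -0.20 for Mcm5 in AKT/c-Met + saline to 1.43 for Mcm5 in AKT/NRas + TAA. Mcm7 overlaps Cops6 and Ap4m1 on the opposite strand, from which stranded counting separates it, and the microRNA genes Mir25 and Mir93 on its own strand had no count.

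**Figure D2:**
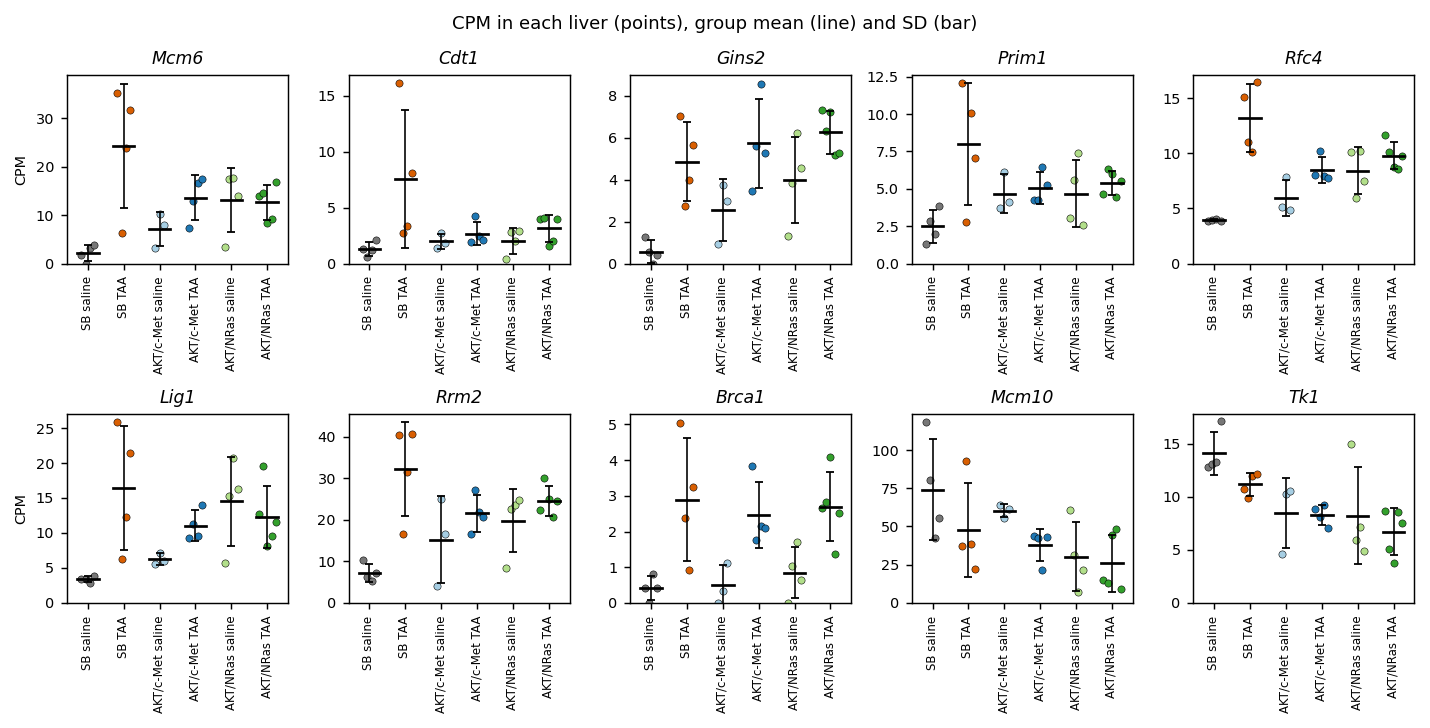
CPM in each liver (points), group mean (line) and SD (bar, cut at 0) for the leading gene of each role group and for the 2 genes that fell, Mcm10 and Tk1; the groups are on the horizontal axis. In Mcm6, Lig1 and Rrm2 the highest livers are those of SB + TAA, in Gins2 the oncogene groups given TAA lie as high, and Mcm10 and Tk1 have their highest group mean in SB + saline.

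Of the 5 origin licensing genes, 3 rose in SB + TAA livers and none in an oncogene group by edgeR, where 1 or 2 of the 5 had an unadjusted p under 0.05 in each group. Cdt1, which loads the helicase and is destroyed once S phase begins, was at 1.28, 0.568, 1.20 and 2.14 CPM in SB + saline and 16.1, 2.76, 3.36 and 8.11 CPM in SB + TAA. It was at 1.39, 2.73 and 1.87 CPM in AKT/c-Met + saline and 1.92, 4.22, 2.45 and 2.11 CPM in AKT/c-Met + TAA. In AKT/NRas + saline it was at 0.440, 2.78, 1.99 and 2.93 CPM and in AKT/NRas + TAA at 4.00, 4.10, 1.57, 2.06 and 4.01 CPM. SB + TAA livers lay above SB + saline livers without overlap, and SB + TAA replicate 1 was higher than the other 3 of its group summed. The change in SB + TAA was 2.48 ± 0.55, adjusted p = 0.00762, and without replicate 1 it was 1.83 with an adjusted p of 0.0541. Orc6, a subunit of the origin recognition complex, rose by 1.37 ± 0.33 (adjusted p = 0.0137) with no overlap between the livers. Cdc6, the loader that acts beside Cdt1, had 1 count over the 4 SB + saline livers and 25 over the 4 SB + TAA livers, a ratio of 17.9 (95% counting interval 2.93 to 734), and passed the test (adjusted p = 0.0355). Gmnn encodes geminin, the inhibitor of Cdt1, and its change in SB + TAA was 0.82 ± 0.27, adjusted p = 0.075. Orc1, the ATPase of the recognition complex, had 13 counts in all 24 livers together, spread over 7 livers and with none in SB + saline or AKT/c-Met + saline, so no fold is given for it.

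Among the 4 genes that activate the loaded helicase, by edgeR Gins2 rose, Cdc45 and Gins1 passed no test, and Mcm10 fell in 1 comparison. Gins2, a subunit of the GINS complex, was at 1.28, 0.568, 0 and 0.428 CPM in SB + saline and 7.06, 2.76, 3.98 and 5.68 CPM in SB + TAA. It was at 0.926, 3.76 and 3.00 CPM in AKT/c-Met + saline and 3.46, 5.63, 8.59 and 5.27 CPM in AKT/c-Met + TAA. With the NRas pair it was at 1.32, 3.83, 6.25 and 4.56 CPM (saline) and 7.34, 6.31, 7.21, 5.16 and 5.26 CPM (TAA). All livers of SB + TAA and of the 3 groups AKT/NRas + saline, AKT/c-Met + TAA and AKT/NRas + TAA lay above every SB + saline liver, where the gene had 5 counts in all. Gins2 had its highest group mean in AKT/NRas + TAA (6.26 ± 1.04 CPM, SD, n = 5), against 4.87 ± 1.89 CPM (n = 4) in SB + TAA. Its log2 fold change was 3.03 ± 0.59, adjusted p = 0.00275 in SB + TAA, 2.78 ± 0.61, adjusted p = 0.00504 in AKT/NRas + saline, 3.27 ± 0.58, adjusted p = 0.00108 in AKT/c-Met + TAA and 3.38 ± 0.56, adjusted p = 0.000274 in AKT/NRas + TAA. Cdc45, which completes the active helicase, had 6 counts over the SB + saline livers and 31 over the SB + TAA livers, and its change there was 1.86 ± 0.82, adjusted p = 0.189 although the livers did not overlap. Gins1, a second subunit of the same complex as Gins2, was at 3.86 ± 1.31 CPM in SB + saline and 5.25 ± 0.757 CPM in SB + TAA, with a change of 0.45 ± 0.37, adjusted p = 0.52.

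Mcm10, which helps the helicase to separate and start, had its highest group mean in SB + saline, as 1 other member did. It was at 118, 80.2, 42.5 and 55.7 CPM in SB + saline and 37.3, 92.8, 38.5 and 22.4 CPM in SB + TAA. With the c-Met pair it was at 63.9, 55.7 and 61.1 CPM (saline) and 43.8, 42.6, 21.8 and 43.2 CPM (TAA). Livers with NRas were at 60.7, 31.3, 7.10 and 21.5 CPM when given saline and 14.7, 13.3, 44.5, 48.1 and 9.27 CPM when given TAA. The SB + saline livers were widely spread among themselves and overlapped every other group. The change from SB + saline was -1.52 ± 0.46, adjusted p = 0.0357 in AKT/NRas + TAA, -1.32 ± 0.49, adjusted p = 0.097 in AKT/NRas + saline and -0.64 ± 0.48, adjusted p = 0.477 in SB + TAA. The first of these lost the call without any 1 of 5 livers (SB + saline replicates 1 and 2, adjusted p = 0.144 and 0.0730, and AKT/NRas + TAA replicates 1, 2 and 5, adjusted p = 0.0944, 0.0974 and 0.103). With a replicate block in edgeR it was -1.12, adjusted p = 0.179. Limma-voom kept it (adjusted p = 0.0209) and also called AKT/NRas + saline (-1.63, adjusted p = 0.0471). With no filter on low counts, edgeR called Mcm10 lower in both AKT/NRas groups and in AKT/c-Met + TAA (adjusted p = 0.00781 in the last). Within 4 of the 6 groups, the liver with the highest Mcm10 was also the liver with the lowest sum of the 40 members other than Mcm10 and Tk1: SB + TAA replicate 2 (92.8 CPM of Mcm10 and a sum of 270 CPM), and replicate 1 of AKT/c-Met + saline (63.9 and 199 CPM), AKT/c-Met + TAA (43.8 and 250 CPM) and AKT/NRas + saline (60.7 and 214 CPM). In SB + saline and AKT/NRas + TAA they were different livers. This was noticed after the values were seen and was given no test. No annotated gene overlaps Mcm10.

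Of 8 polymerase and primase genes, 2 rose in SB + TAA livers and none in an oncogene group by edgeR, where 0 to 3 of the 8 had an unadjusted p under 0.05 in each group. Prim1, the catalytic primase subunit that lays down RNA primers, was at 1.28, 2.84, 2.00 and 3.85 CPM in SB + saline and 12.1, 2.76, 10.1 and 7.03 CPM in SB + TAA. Livers with c-Met were at 3.70, 6.15 and 4.12 CPM when given saline and 4.23, 4.22, 6.44 and 5.27 CPM when given TAA. With the NRas pair it was at 3.08, 5.57, 7.39 and 2.60 CPM (saline) and 4.67, 6.31, 5.96, 4.47 and 5.51 CPM (TAA). SB + TAA replicate 2 lay within the SB + saline range and the other 3 above it, while all livers of both oncogene groups given TAA lay above that range. The change in SB + TAA was 1.69 ± 0.41, adjusted p = 0.0134, and the adjusted p was 0.0544 without SB + saline replicate 1 and 0.0575 without SB + TAA replicate 1. Pola1, the catalytic subunit of polymerase alpha, rose by 1.15 ± 0.32 (adjusted p = 0.0331) with no overlap. For their partners in the same complex no change passed the test, with 0.17 ± 0.38, adjusted p = 0.868 for Pola2 and 1.17 ± 0.58, adjusted p = 0.245 for Prim2. For the leading and lagging strand polymerases the SB + TAA changes were 1.12 ± 0.66, adjusted p = 0.346 for Pold1, 0.20 ± 0.29, adjusted p = 0.757 for Pold2 and 1.10 ± 0.60, adjusted p = 0.305 for Pole. Pole2, the second subunit of polymerase epsilon, had 3 counts over the SB + saline livers and 11 over the SB + TAA livers, a ratio of 2.62 (95% counting interval 0.693 to 14.6).

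The sliding clamp, its loader and the single strand binding protein include 6 members, of which 4 rose in SB + TAA livers, 2 in AKT/NRas + saline, 2 in AKT/NRas + TAA and 1 in AKT/c-Met + TAA. Rfc4, a small subunit of the clamp loader, had the smallest p of all 42 genes in the test among the 6 groups (adjusted p = 0.00046, edgeR F test). It was at 3.85, 3.98, 4.01 and 3.85 CPM in SB + saline and 15.1, 11.1, 10.1 and 16.5 CPM in SB + TAA. With the c-Met pair it was at 5.09, 7.86 and 4.87 CPM (saline) and 8.07, 10.2, 7.98 and 7.72 CPM (TAA). Livers with NRas were at 10.1, 5.92, 10.2 and 7.49 CPM when given saline and 11.7, 10.1, 8.78, 8.60 and 9.77 CPM when given TAA. The 4 SB + saline livers lay between 3.85 and 4.01 CPM, and no liver of any other group reached down to them. The change was 1.74 ± 0.25, adjusted p = 0.000128 in SB + TAA, 1.31 ± 0.25, adjusted p = 0.00107 in AKT/NRas + TAA, 1.11 ± 0.26, adjusted p = 0.0129 in AKT/c-Met + TAA, 1.09 ± 0.26, adjusted p = 0.00934 in AKT/NRas + saline and 0.61 ± 0.29, adjusted p = 0.491 in AKT/c-Met + saline. Rfc3 followed with 1.25 ± 0.23, adjusted p = 0.00155 in SB + TAA, 0.99 ± 0.23, adjusted p = 0.00802 in AKT/NRas + saline and 0.95 ± 0.22, adjusted p = 0.00605 in AKT/NRas + TAA. The other loader subunits did not pass the test in SB + TAA, with 0.69 ± 0.28, adjusted p = 0.149 for Rfc5 and 0.30 ± 0.21, adjusted p = 0.431 for Rfc2.

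Pcna, the clamp itself and a common stain for cycling cells, was at 12.5 ± 2.66 CPM in SB + saline and 25.1 ± 9.86 CPM in SB + TAA (SD, n = 4 each). It rose there by 1.00 ± 0.26 (adjusted p = 0.0206), and its changes in the oncogene groups were 0.19 to 0.53 apart from AKT/c-Met + TAA, where it was -0.03 ± 0.27, adjusted p = 0.983. Rpa2, which covers single-stranded DNA at the fork, rose in SB + TAA by 1.52 ± 0.42 (adjusted p = 0.0294).

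Both genes that process Okazaki fragments rose in SB + TAA and in AKT/NRas + TAA livers. Lig1, the ligase that seals the fragments, was at 3.42, 3.41, 2.81 and 3.85 CPM in SB + saline and 25.9, 6.32, 12.2 and 21.4 CPM in SB + TAA. Livers with c-Met were at 5.56, 7.18 and 6.00 CPM when given saline and 9.22, 11.3, 9.51 and 14.0 CPM when given TAA. With the NRas pair it was at 5.72, 15.3, 20.7 and 16.3 CPM (saline) and 12.7, 19.6, 8.15, 9.63 and 11.5 CPM (TAA). Every liver of the other 5 groups lay above the SB + saline livers. The change was 2.29 ± 0.40, adjusted p = 0.00101 in SB + TAA, 2.12 ± 0.41, adjusted p = 0.0018 in AKT/NRas + saline, 1.70 ± 0.42, adjusted p = 0.0168 in AKT/c-Met + TAA and 1.86 ± 0.40, adjusted p = 0.00316 in AKT/NRas + TAA. In AKT/c-Met + saline it was 0.89 ± 0.48, adjusted p = 0.535, without overlap, and limma-voom gave an adjusted p of 0.0911 for Lig1 in AKT/c-Met + TAA. Fen1, the nuclease that trims the flaps before sealing, rose by 1.62 ± 0.38 in SB + TAA (adjusted p = 0.0108) and by 1.42 ± 0.37 in AKT/NRas + TAA (adjusted p = 0.0138).

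**Figure D3:**
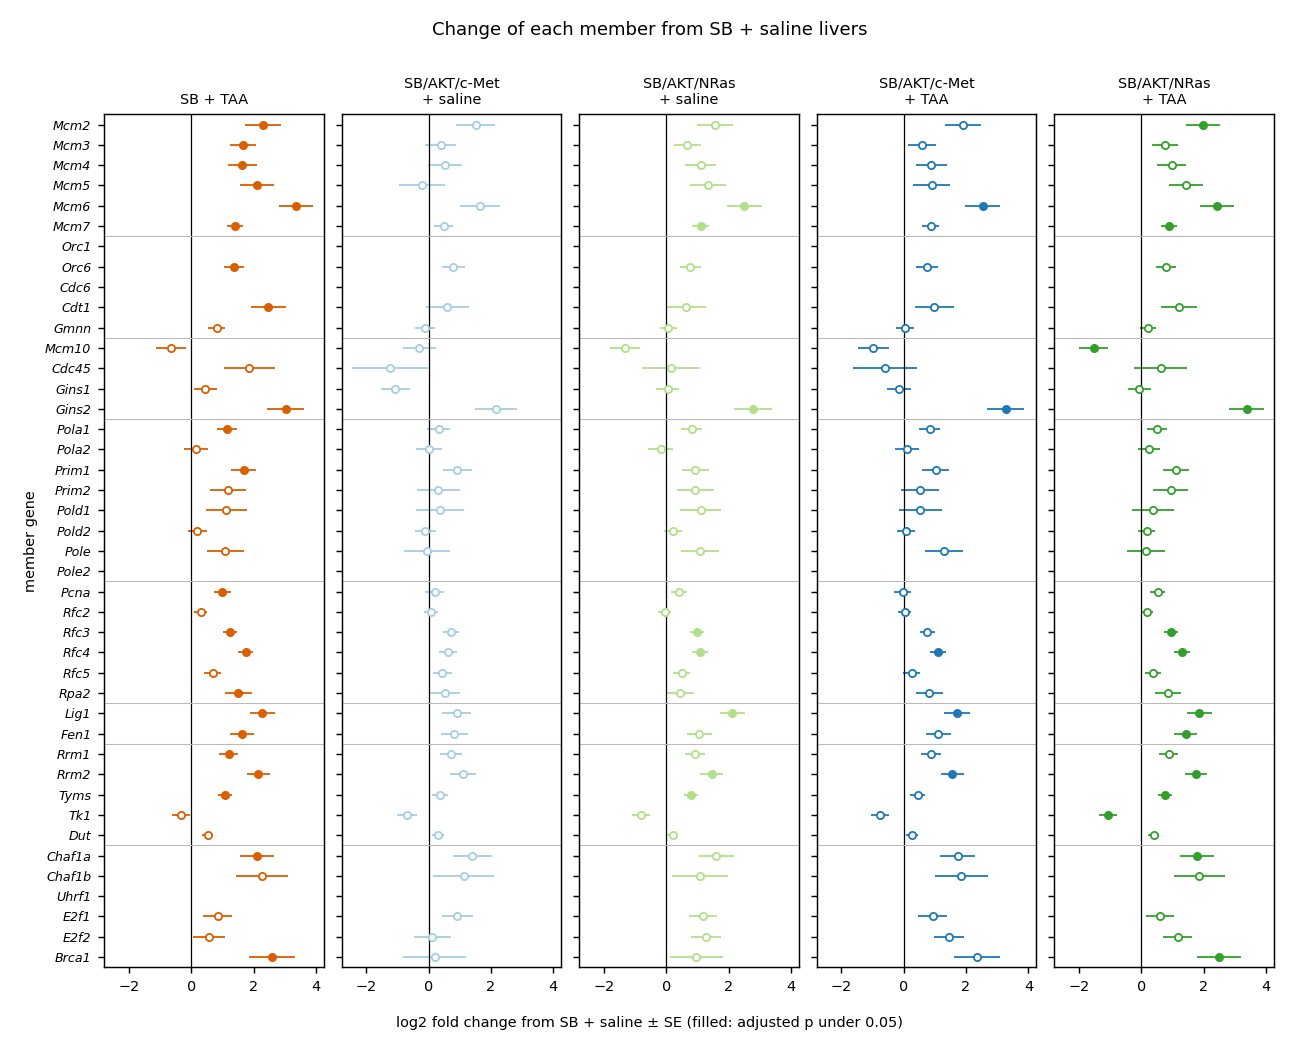
Log2 fold change from SB + saline ± SE for 38 members (rows, by role group) in the 5 other groups (panels); filled points have an adjusted p under 0.05 in edgeR. Orc1, Cdc6, Pole2 and Uhrf1, with 3 counts or fewer over the SB + saline livers, are not drawn; most filled points are in the SB + TAA panel, and none is filled for AKT/c-Met + saline.

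Among 5 members that supply deoxynucleotides, 3 rose in SB + TAA livers. Rrm2, the small subunit of ribonucleotide reductase that is made in S phase, was at 10.3, 6.25, 5.21 and 7.28 CPM in SB + saline and 40.3, 16.6, 31.5 and 40.6 CPM in SB + TAA. With the c-Met pair it was at 4.17, 24.9 and 16.5 CPM (saline) and 16.5, 27.1, 21.8 and 20.7 CPM (TAA). Livers with NRas were at 8.35, 22.6, 23.6 and 24.7 CPM when given saline and 22.4, 30.0, 25.1, 20.6 and 24.6 CPM when given TAA. The 3 TAA groups lay above all SB + saline livers, and replicate 1 of both oncogene groups given saline did not. The change was 2.15 ± 0.37, adjusted p = 0.000769 in SB + TAA, 1.46 ± 0.38, adjusted p = 0.0155 in AKT/NRas + saline, 1.56 ± 0.37, adjusted p = 0.0144 in AKT/c-Met + TAA and 1.75 ± 0.36, adjusted p = 0.0023 in AKT/NRas + TAA. Limma-voom gave Rrm2 an adjusted p of 0.0628 in AKT/NRas + saline and 0.055 in AKT/c-Met + TAA. The large subunit, Rrm1, rose in SB + TAA by 1.20 ± 0.31 (adjusted p = 0.0202), and its change in AKT/NRas + saline was 0.93 ± 0.31, adjusted p = 0.0639. Tyms, thymidylate synthase, rose by 1.08 ± 0.23 in SB + TAA (adjusted p = 0.00594), 0.80 ± 0.24 in AKT/NRas + saline (adjusted p = 0.0337) and 0.77 ± 0.23 in AKT/NRas + TAA (adjusted p = 0.0293). Dut, which removes dUTP, was at 0.52 ± 0.19, adjusted p = 0.0952 in SB + TAA.

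Tk1, the cytosolic thymidine kinase that salvages thymidine, was the other member with its highest group mean in SB + saline. It was at 12.8, 13.1, 13.2 and 17.1 CPM in SB + saline and 10.8, 9.87, 11.9 and 12.2 CPM in SB + TAA. Livers with c-Met were at 4.63, 10.3 and 10.5 CPM when given saline and 8.83, 8.09, 9.20 and 7.02 CPM when given TAA. With the NRas pair it was at 14.9, 5.92, 7.10 and 4.88 CPM (saline) and 8.68, 5.05, 3.76, 8.60 and 7.52 CPM (TAA). No liver of the 3 TAA groups or of AKT/c-Met + saline reached the SB + saline range, and AKT/NRas + saline replicate 1 lay inside it. It fell by 1.06 ± 0.28 on the log2 scale in AKT/NRas + TAA (adjusted p = 0.0142), and was at -0.81 ± 0.29, adjusted p = 0.0866 in AKT/NRas + saline, -0.76 ± 0.29, adjusted p = 0.155 in AKT/c-Met + TAA and -0.33 ± 0.28, adjusted p = 0.549 in SB + TAA. Scaling by library size alone gave -0.65 with an adjusted p of 0.0858 in AKT/NRas + TAA, and 0.07 with an adjusted p of 0.907 in SB + TAA. Tk1 overlaps Afmid on the opposite strand. Tk1 and Tyms feed the same pool of thymidine nucleotides by salvage and by synthesis, and they moved in opposite directions in AKT/NRas + TAA.

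The last role group holds 6 genes of chromatin assembly, transcription and repair, of which 3 rose in SB + TAA livers, 3 in AKT/NRas + TAA and 1 each in AKT/NRas + saline and AKT/c-Met + TAA. Brca1, which protects and repairs forks by recombination, was at 0.428, 0, 0.802 and 0.428 CPM in SB + saline and 5.04, 2.37, 0.917 and 3.25 CPM in SB + TAA. With the c-Met pair it was at 0, 0.342 and 1.12 CPM (saline) and 3.84, 1.76, 2.15 and 2.11 CPM (TAA). Livers with NRas were at 0, 1.04, 1.70 and 0.651 CPM when given saline and 2.67, 2.84, 4.08, 1.38 and 2.51 CPM when given TAA. All livers given TAA lay above all SB + saline livers, whereas both oncogene groups given saline overlapped them. The change was 2.59 ± 0.73, adjusted p = 0.0321 in SB + TAA and 2.49 ± 0.71, adjusted p = 0.0241 in AKT/NRas + TAA, on 4 counts over the SB + saline livers. The SB + TAA call was lost without any 1 of 5 livers (SB + saline replicates 1, 2 and 4 and SB + TAA replicates 1 and 4, adjusted p = 0.0762 to 0.114), and the AKT/NRas + TAA call without SB + saline replicate 1, 2 or 4 (0.0643 to 0.0756).

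Uhrf1, which brings the maintenance methyltransferase to newly copied DNA, had 2 counts over the SB + saline livers and 87 over the SB + TAA livers, a ratio of 31.1 (95% counting interval 8.36 to 261). It was at 11.4, 0.395, 5.20 and 9.47 CPM in SB + TAA, and replicate 2 lay within the SB + saline range. It passed the test in SB + TAA (adjusted p = 0.00385), AKT/NRas + saline (adjusted p = 0.0191), AKT/c-Met + TAA (adjusted p = 0.0496) and AKT/NRas + TAA (adjusted p = 0.0353). Chaf1a, the large subunit of the histone chaperone that follows the fork, rose by 2.12 ± 0.55 in SB + TAA (adjusted p = 0.0207) and 1.79 ± 0.54 in AKT/NRas + TAA (adjusted p = 0.0347). Its partner Chaf1b, with 6 counts over the SB + saline livers, was at 2.27 ± 0.82, adjusted p = 0.105 in SB + TAA. The transcription factors E2f1 and E2f2, which drive many of these genes, passed no test, and in SB + TAA their changes were 0.85 ± 0.46, adjusted p = 0.301 and 0.57 ± 0.51, adjusted p = 0.568. E2f1 was highest in AKT/NRas + saline (4.84, 5.22, 4.83 and 2.93 CPM) and E2f2 in AKT/c-Met + TAA (3.07, 5.63, 4.91 and 4.91 CPM), each above all SB + saline livers.

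The design also asks whether TAA adds to the oncogenes and whether the oncogenes add to TAA. In AKT/NRas livers the median log2 difference between TAA and saline was 0.01 (-0.03 over all genes), edgeR called 0 of the 42 (0.124% of all genes higher and 0.0516% lower), 1 had an unadjusted p under 0.05, and limma-voom and DESeq2 called 0. In AKT/c-Met livers it was 0.29 (0.02), with 0 called by any of the 3 tools (0.134% and 0.103% of all genes by edgeR) and 4 at an unadjusted p under 0.05. Brca1 had the smallest p in both, with 2.16 ± 0.77, adjusted p = 0.345 in AKT/c-Met livers, where the livers did not overlap, and 1.52 ± 0.58, adjusted p = 0.449 in AKT/NRas livers.

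Livers with oncogenes and TAA lay below livers with TAA alone for most members, without a call by edgeR. Set against SB + TAA livers, AKT/c-Met livers given TAA had a median of -0.56 (-0.01 over all genes) and 37 of the 42 were lower (48.5% of all genes were higher), 11 at an unadjusted p under 0.05. EdgeR called 0 (0.268% of all genes higher and 0.134% lower), limma-voom 0 and DESeq2 1. Pcna was the nearest by edgeR, with a difference of -1.03 ± 0.25, adjusted p = 0.0691. For AKT/NRas + TAA against SB + TAA the median was -0.46 (-0.02) and 38 of the 42 were lower (47.5% of all genes were higher), 11 at an unadjusted p under 0.05, with 0 called by edgeR (1.01% and 0.464%), limma-voom or DESeq2. Cdt1 had the smallest p there (-1.26 ± 0.43, adjusted p = 0.194). These 2 comparisons share the SB + TAA livers.

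Whether the effect of TAA differed between SB and AKT/NRas livers was tested as an interaction in the same model. The SB + saline livers enter both this test and the comparisons above. It was called for 6 of the 42 members, all lower in AKT/NRas livers, beside 0.583% of all genes called lower and 0.175% higher, and the median over the members was -1.42 (-0.11 over all genes). The difference was -3.45 ± 0.69, adjusted p = 0.0144 for Mcm6, -2.55 ± 0.51, adjusted p = 0.0148 for Lig1, -1.62 ± 0.35, adjusted p = 0.0238 for Mcm7, -1.53 ± 0.33, adjusted p = 0.0238 for Rfc4 and -1.29 ± 0.30, adjusted p = 0.0371 for Rfc3. Uhrf1 was called too (adjusted p = 0.0314), on 2 counts in the baseline. All 6 had risen in both groups against SB + saline without the other treatment, and in AKT/NRas livers TAA added -0.08 ± 0.41 for Mcm6 and -0.26 ± 0.31 for Lig1. The count moved with single livers: it was 2 without SB + saline replicate 1, SB + TAA replicate 1 or SB + TAA replicate 4, 3 without SB + saline replicate 4 or AKT/NRas + saline replicate 3, 13 without SB + TAA replicate 2 and 15 without AKT/NRas + saline replicate 1. Limma-voom called 0 and DESeq2 8. For AKT/c-Met livers the same test called 0 members by edgeR, limma-voom and DESeq2 (0% of all genes higher and 0.0103% lower by edgeR), with a median of -1.12 and 20 members at an unadjusted p under 0.05. Whether the interaction itself differed between the oncogenes was not tested.

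**Figure D4:**
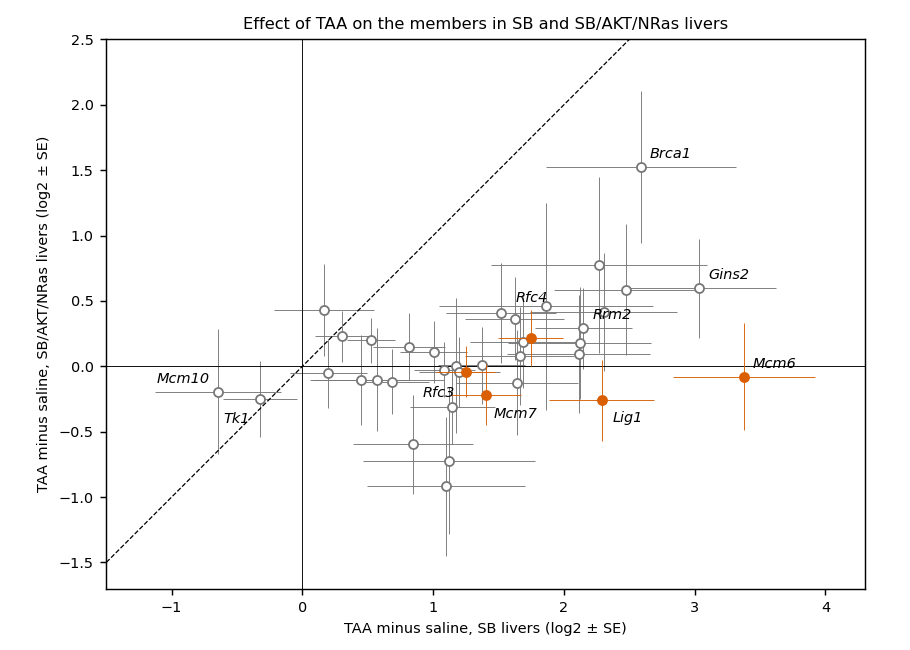
Log2 difference between TAA and saline ± SE in SB livers (horizontal) and in AKT/NRas livers (vertical) for 38 members; the dashed line marks equal effects and filled points a called interaction. Mcm6 lies at 3.38 and -0.08, and most members lie to the right of the dashed line.

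The 2 oncogene pairs were compared directly as well. Without TAA the median of AKT/NRas minus AKT/c-Met was 0.31 (0.03 over all genes), 0 members were called by edgeR, limma-voom or DESeq2 (0.124% of all genes higher and 0.0103% lower by edgeR) and 5 had an unadjusted p under 0.05, led by Lig1 (1.23 ± 0.40, adjusted p = 0.287). With TAA it was 0.09 (0.01), 0 were called by any of the 3 tools (0.00516% in each direction by edgeR) and 2 had an unadjusted p under 0.05. The test among all 6 groups called 13 of the 42, beside 9.01% of all genes, and limma-voom called 8 and DESeq2 17. It called 8 without SB + TAA replicate 1 and 20 without SB + TAA replicate 2.

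Mitosis genes act once replication is complete. Of 20 such genes, 18 rose in SB + TAA (3.48% of all genes), 18 in AKT/NRas + saline (5.56%), 17 in AKT/c-Met + TAA (2.68%) and 19 in AKT/NRas + TAA (5.7%). Their median log2 fold changes were 3.15, 3.22, 3.22 and 3.18, whereas those of the replication genes were 1.39, 0.98, 0.87 and 0.89 in the same groups. The mitosis medians include a gene without a count in SB + saline, at its fitted value. Of the 20, 0 were called in the AKT/c-Met livers given saline (0.599% of all genes higher and 0.0413% lower), 11 had an unadjusted p under 0.05 and the median was 1.79. Cenpf, a kinetochore protein, went from 1.64 CPM in SB + saline to 16.0 CPM in SB + TAA and 23.0 CPM in AKT/c-Met + TAA by group mean, and Cdc20, an activator of the anaphase-promoting complex, from 1.52 to 19.7 and 23.2 CPM. Setting the summed CPM of the 40 replication genes other than Mcm10 and Tk1 over that of the 20 mitosis genes gave 8.60 to 12.9 in SB + saline livers and 1.34 to 3.69 in SB + TAA livers. The ratio was 1.21 to 1.81 in AKT/c-Met + TAA, 1.53 to 2.65 in AKT/NRas + TAA, 1.42 to 5.52 in AKT/NRas + saline and 2.84 to 9.13 in AKT/c-Met + saline. In both oncogene groups given saline the highest ratio was that of replicate 1, whose replication and mitosis sums were each the lowest of the group. The mitosis sum in SB + TAA, 105 to 267 CPM, overlapped the sums of both oncogene groups given TAA (138 to 273 and 109 to 250 CPM), while the replication sum was above those groups in SB + TAA replicates 1, 3 and 4 and not in replicate 2. No test was made of the ratio.

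**Figure D5:**
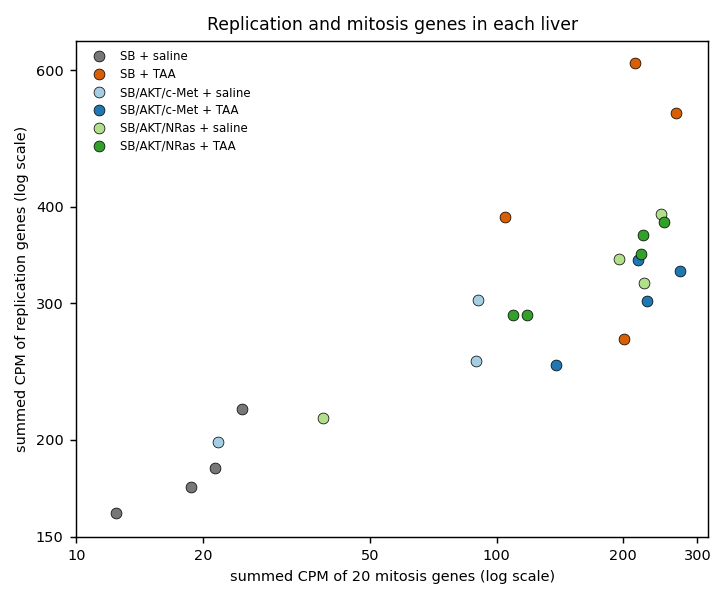
Summed CPM of 20 mitosis genes (horizontal, log scale) and of the 40 replication genes other than Mcm10 and Tk1 (vertical, log scale) in each of the 24 livers, coloured by group. SB + saline livers lie at 12.4 to 24.8 CPM of mitosis genes, and 3 SB + TAA livers, at 388, 529 and 613 CPM of replication genes, lie above the oncogene livers of like mitosis sums.

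Outside the 42, 36 genes work at the same forks and origins. Of these 36, 3 rose in SB + TAA (3.48% of all genes) and 3 in AKT/NRas + TAA (5.7%), with list medians of 0.60 and 0.39. In each group 0 of the 36 were called lower (2.51% and 3.55% of all genes), and 13 and 9 of them had an unadjusted p under 0.05. Hells, a chromatin remodeller that works with Uhrf1's pathway of DNA methylation, led them in the test among all groups, at 1.75 CPM in SB + saline and 25.2 CPM in SB + TAA by group mean, a change of 3.80 ± 0.51 (adjusted p = 6.29e-05). Esco2, which acetylates cohesin during S phase, changed by 2.87 ± 0.46 (adjusted p = 0.000472) and Pold4, the small subunit of polymerase delta, by 1.73 ± 0.43 (adjusted p = 0.0164). Of 16 E2F, retinoblastoma and cyclin genes 2 rose in SB + TAA (3.48% of all genes). They were the S phase cyclins Ccne2, by 2.35 ± 0.45 (adjusted p = 0.00241), and Ccna2, by 3.62 ± 0.74 (adjusted p = 0.00397). Ccna2 was at only 0.41 CPM by group mean in SB + saline, which limits the precision of its change.

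Of 20 checkpoint and recombination genes 19 were tested and 5 rose in SB + TAA (3.48% of all genes), with a fitted median of 2.20. Some of the 19 had no count in SB + saline, so the size of their fitted changes cannot be read. The median includes them and cannot be set beside that of the replication genes. Clspn, the adaptor that activates the checkpoint kinase Chk1 at stalled forks, changed by 3.89 ± 0.77 (adjusted p = 0.00293) and Blm, a helicase that unwinds recombination intermediates, by 1.75 ± 0.44 (adjusted p = 0.0180). Clspn was at only 0.24 CPM by group mean in SB + saline, so the size of its change is not well fixed. Of 24 genes of nucleotide synthesis upstream of the deoxynucleotide steps, 2 rose and 1 fell in SB + TAA (3.48% and 2.51% of all genes), with a median of 0.28. Adss, an enzyme of AMP synthesis, rose by 0.61 ± 0.17 (adjusted p = 0.0331), and Shmt2, the mitochondrial serine hydroxymethyltransferase that feeds one-carbon units, fell by 0.61 ± 0.17 (adjusted p = 0.0290). In AKT/NRas + saline 2 of these 24 rose and 4 fell (5.56% and 2.84% of all genes).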

How the data were processed

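The authors deposited raw read counts per gene, made from 3' tag libraries with molecular identifiers (UMIs). Reads were aligned with STAR to GRCm38 plus the human NRAS and MET sequences, marked by UMI and counted by strand by featureCounts 1.6.4, which dropped reads under a mapping quality of 10. The counting summary lists 0 records removed as duplicates. The 42 members and all other lists were chosen with earlier results of these data known.

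Groups were taken from the labels, 1 liver per mouse. Genes with at least 0.5 CPM in 2 libraries were kept (19381 of 53467). EdgeR 4.0.16 (R 4.3.3) fitted 1 quasi-likelihood model of the 6 group means with TMM scaling, with Benjamini-Hochberg adjustment over all kept genes. The script was tested on simulated counts. Alternatives were limma-voom (limma 3.58.1), DESeq2 1.42.0, library size scaling, no filter, a replicate block and leaving out each liver. All members could be named. Values per liver were given for the gene of each role with the smallest p among groups and for the 2 genes that fell, and up to 4 genes of another list were named by the same p. Intervals on ratios of counts cover counting error only.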

Additional observations from a re-analysis of the deposited data

Results flagged for a closer look

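In 55 sets of 4 or 5 livers, 4 single livers stood apart from their group by Dixon's test, and chance alone flags about 1 set in 20. Rfc4 was at 10.2 CPM in replicate 2 of SB/AKT/c-Met + TAA, against 7.72 to 8.07 CPM in the other 3. Rrm2 was at 8.35 CPM in replicate 1 of SB/AKT/NRas + saline, against 22.6 to 24.7 CPM. Mcm10 was at 21.8 CPM in replicate 3 of SB/AKT/c-Met + TAA, against 42.6 to 43.8 CPM. Tk1 was at 17.1 CPM in replicate 4 of SB + saline, against 12.8 to 13.2 CPM.

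The effect of TAA differed between SB and SB/AKT/NRas livers by the interaction test of edgeR for 6 members. The log2 differences were -3.45 for Mcm6, -1.62 for Mcm7, -1.29 for Rfc3, -1.53 for Rfc4 and -2.55 for Lig1. For Uhrf1 the fitted difference was -5.1, which rests on 2 counts in SB + saline, so its size cannot be read.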

How the results depend on the processing

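The 24 members called in SB + TAA were 16 to 29 under the other tools, scalings and filters, all higher. With no filter on low counts, 3 were called in SB/AKT/c-Met + saline (1.52% of all genes called), 10 in SB/AKT/c-Met + TAA (4.56%), 2 each for SB/AKT/c-Met and for SB/AKT/NRas under TAA, 2 between the oncogene pairs without TAA, 3 and 14 for the c-Met and NRas interactions and 25 among the 6 groups. Library size alone gave 22 in SB/AKT/NRas + saline, 17 in SB/AKT/c-Met + TAA, 23 in SB/AKT/NRas + TAA, 12 for the NRas interaction and 25 among the groups. It moved the median of all genes by 0.38, 0.26, 0.43, 0.37 and 0.39 from SB + saline (SB + TAA, then c-Met and NRas with saline, then both with TAA), relative to which the members stood at 1.33, 0.43, 0.92, 0.83 and 0.84. The share of calls that were higher over all genes was 92.2%, 96.5%, 94.3%, 94.3% and 92.2% there, against 58.1%, 93.5%, 66.2%, 71.4% and 61.6% with TMM. Limma-voom gave 2 in SB/AKT/c-Met + TAA, 0 for the NRas interaction and 8 among the groups, and DESeq2 gave 1 for SB/AKT/c-Met under TAA. The causes were not tested. Livers with the same replicate number did not deviate together (mean r = -0.00717), so the numbers gave no sign of pairing. A replicate block gave 9 in SB/AKT/NRas + TAA (5.41% of all genes called) and 3 for the NRas interaction. Both checks use the replicate numbers only, and other shared handling of the livers was not tested.

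Leaving out 1 liver gave 10 to 26 for SB + TAA, 0 to 1 for SB/AKT/c-Met + saline, 5 to 18 for SB/AKT/NRas + saline, 3 to 9 for SB/AKT/c-Met + TAA and 8 to 16 for SB/AKT/NRas + TAA. It gave 0 to 1 for SB/AKT/c-Met under TAA and between the oncogene pairs without TAA, 2 to 15 for the NRas interaction and 8 to 20 among the groups. The 3 in SB/AKT/c-Met + TAA came without SB + saline replicate 3 or its own replicate 2, and the 8 in SB/AKT/NRas + TAA without SB + saline replicate 1 or 2. The single calls came without replicate 1 of SB/AKT/c-Met + saline for that group, without SB + TAA replicate 2, SB/AKT/c-Met + TAA replicate 4 or SB/AKT/NRas + saline replicate 1 for SB/AKT/c-Met under TAA, and without the last of these between the oncogene pairs. Of 624 such values of named genes, 25 lost the call and 0 reversed. Without single SB + saline or SB + TAA livers, the share of all genes called in SB + TAA moved too, between 2.23% and 9.43%. That share is not given for the other comparisons, so their counts without a liver have no background. Several members had 6 counts or fewer over the SB + saline livers, which limits the precision of their changes.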
